A study of Mus musculus with 4 samples.

Results

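The receptor chains for interferons and the kinases and transcription factors that relay their signal were examined as 9 genes, Ifngr1, Ifngr2, Ifnar1, Ifnar2, Jak1, Jak2, Tyk2, Stat2 and Irf1, in sequencing counts of γδ T cells from mouse lung. They were taken by symbol from the 22865 genes of the count table, and all 9 were found and had enough counts to be tested. They were selected on symbols, but with the measured Aire-/- to Aire+/+ differences of an earlier look at these libraries known, among them those of Ifngr1 and of interferon-induced genes. For that reason the differences of these 9 genes are given as a description, with no p-value. The study compared 2 libraries from Aire-/- mice with 2 from Aire+/+ mice, all 10-week-old C57Bl/6 females. Aire drives the expression of proteins of other tissues in the thymic medulla, where developing T cells meet them. Each library came from 500 viable lung cells sorted as CD45+, TCRγδ+, TCRβ-, CD27- and negative for the chains Vγ1, 2, 4 and 5, a population the submitters call Tgd17, and was made by Smart-Seq2, which copies whole transcripts from very few cells. The labels do not say whether the libraries of a genotype came from separate animals or from pools, so the spread between them may be technical.

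Interferon-γ, the type II interferon, binds a receptor built of the ligand-binding chain IFNGR1 and the signalling chain IFNGR2, which carry the kinases JAK1 and JAK2. Type I interferons bind IFNAR1 and IFNAR2, which carry TYK2 and JAK1. The kinases phosphorylate STAT proteins, which bind as dimers to GAS elements after interferon-γ, or, with STAT2 and IRF9, to ISRE elements after type I interferon. IRF1 is a transcription factor made as an early product of this signal, and it carries the response on to further genes. Lymphocytes of most kinds, B cells and γδ T cells among them, carry both receptors.

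Promoter sequences are shown for the receptor chain with the largest difference and for the 2 transcription factors, which are themselves known targets of interferon. They are the 250 bases before the RefSeq start site on GRCm38.p6, all on the plus strand, with any GAS match (TTCNNNGAA) or ISRE match (GAAA, any 2 bases and GAAA, read on both strands) in capitals.
Ifngr1, chr10:19591699-19591948: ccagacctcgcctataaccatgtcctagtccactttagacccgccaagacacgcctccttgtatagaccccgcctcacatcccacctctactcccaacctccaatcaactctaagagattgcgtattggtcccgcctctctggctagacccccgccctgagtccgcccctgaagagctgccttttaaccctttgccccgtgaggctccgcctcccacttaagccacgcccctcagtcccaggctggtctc
Irf1, chr11:53769764-53770013: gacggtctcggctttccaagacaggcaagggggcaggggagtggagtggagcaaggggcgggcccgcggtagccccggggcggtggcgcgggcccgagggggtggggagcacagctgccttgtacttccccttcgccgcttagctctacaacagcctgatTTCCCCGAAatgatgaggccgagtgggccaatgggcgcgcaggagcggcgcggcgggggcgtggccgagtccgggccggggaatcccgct
Stat2, chr10:128270248-128270497: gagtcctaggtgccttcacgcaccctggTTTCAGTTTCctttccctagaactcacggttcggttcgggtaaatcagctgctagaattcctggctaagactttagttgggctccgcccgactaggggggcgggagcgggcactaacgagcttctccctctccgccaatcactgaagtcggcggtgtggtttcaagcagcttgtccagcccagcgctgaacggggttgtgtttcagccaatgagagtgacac
Irf1 held 1 GAS match, TTCCCCGAA, which began 90 bases before the start. A second RefSeq window of Irf1, chr11:53770223-53770472, which is not shown, held neither motif. Stat2 held 1 ISRE match, on the minus strand (TTTCAGTTTC as printed), which began 222 bases before the start. Ifngr1 held neither motif in its window. Of all 32851 promoter windows of this length, 7.02% held the GAS letters and 2.98% the ISRE letters. Among the 10 windows of the 9 genes, GAS letters stood in 2, the Irf1 window shown and that of Ifnar2, and ISRE letters in 1. No match overlapped another, and a match of letters is a description and not a bound site.

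In the genome the 9 genes lie on 6 chromosomes (GRCm38, GENCODE M21), and 3 of the 4 receptor genes are neighbours. Ifnar2, Ifnar1 and Ifngr2 lie with Il10rb, a receptor chain shared by interleukin-10, interleukin-22 and type III interferons, within 192.8 kb of chromosome 16 (91372783 to 91565623). Ifngr1 (19591949 to 19610229) and Stat2 (128270559 to 128292849) lie on chromosome 10, the chromosome of Aire, at 58.4 Mb and 50.2 Mb from it. A readthrough gene model, Gm21970, overlaps Ifnar2 on the same strand, Gm17334 overlaps Irf1 and 1700084C06Rik overlaps Tyk2 on the opposite strand. Raver2 overlaps the end of Jak1 on the opposite strand and had 10 to 23 counts per library. The other 3 had no row in the table, and how reads in such overlaps were assigned is not given in the sources used here.

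Library totals ran from 1106891 to 1265239 counts. The targeted gene had 0 counts in all 4 libraries and so checked no genotype label. Genes that mark the labelled cells were present in every library, with 177 to 237 counts of Il17a, the cytokine of these cells, and 236 to 431 of Il23r, a receptor chain for interleukin-23. The summed level of 10 marker genes of these cells was 5803 and 6413 CPM in Aire-/- against 3939 and 5292 CPM in Aire+/+ libraries, where CPM is the count relative to 1000000 of the library's TMM-scaled total. Most of each sum came from 1 gene, at 3891 and 4356 CPM in Aire-/- and 2604 and 3723 CPM in Aire+/+. Single markers differed: Il23r had 374 and 406 against 191 and 241 CPM, while Il17f overlapped, at 26.5 and 29.2 against 35.6 and 15.4 CPM. B cell transcripts were present too. The summed level of 14 B cell and plasma cell markers was 3307 and 2684 CPM in Aire-/- against 6419 and 4064 CPM in Aire+/+ libraries. Of these, 1 plasma cell marker had 0 and 3.77 CPM in Aire-/- against 1353 and 708 CPM in Aire+/+, which widened the gap between the sums. Single B cell markers went different ways. Cd79a had 345 and 275 CPM in Aire-/- against 693 and 486 CPM in Aire+/+. Ms4a1 had 466 and 393 against 698 and 370 CPM, so its genotypes overlapped. The 4 CD3 chains summed to 1390.2 and 1504 CPM in Aire-/- and 1004 and 1532 CPM in Aire+/+ libraries, so Aire+/+ replicate 1 stood lowest for T cell and highest for B cell transcripts. None of the 14 B cell markers was at 0 in every library. The sum of 13 macrophage and monocyte markers was 401 and 446 CPM in Aire-/- and 910 and 474 CPM in Aire+/+, with none of them at 0 in every library. Single markers of this list went different ways: Cd14 had 0 and 0 counts in Aire-/- against 32 and 11 in Aire+/+, Lyz2 had 1 and 61 against 186 and 2, and Emr1 had 15 and 3 against 2 and 6. The ribosomal RNA precursor Rn45s took 20.4% and 19.4% of counts in Aire-/- and 17.4% and 16.2% in Aire+/+, and the fits below were repeated without it. In such mixed libraries fewer cells of a type and less RNA per cell cannot be told apart.

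Ifngr1, the ligand-binding chain of the interferon-γ receptor, was the most abundant of the 9 and had the largest difference between genotypes. Its level was 1397 and 2075 CPM in Aire-/- replicates 1 and 2 and 753 and 1120.0 CPM in Aire+/+ replicates 1 and 2, from 1530, 2201, 932 and 1309 counts. Both Aire-/- libraries stood above both Aire+/+ libraries, with the lowest Aire-/- value 1.25 times the highest Aire+/+ value. The libraries of a genotype differed by 1.49 times in both genotypes, so the closest pair across genotypes lay nearer than 2 libraries of the same genotype. The means were 1736 ± 479 and 937 ± 259 CPM (SD, n = 2 each), and the fitted log2 fold change was 0.89 (approximate SE 0.22).

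Ifngr2, the signalling chain of the same receptor, had 206 and 289 CPM in Aire-/- and 171 and 265 CPM in Aire+/+ libraries. The genotypes overlapped, each with 1 lower and 1 higher library, and the log2 fold change was 0.18 (SE 0.25). Within each library the length-scaled level of Ifngr1 was also compared with that of Ifngr2, a ratio that does not depend on the library's total. This ratio was 11.9 and 12.6 in Aire-/- against 7.72 and 7.41 in Aire+/+ libraries. In these 4 libraries the replicates lay close together and the genotypes apart. This is a description, since the difference of Ifngr1 was known when the genes were chosen. How often ratios of other gene pairs separate the genotypes was not counted. A ratio alone does not tell which chain differed. Taken singly, the level of Ifngr1 separated the genotypes and that of Ifngr2 overlapped.

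The type I receptor chains showed no such separation. Ifnar1, which carries TYK2, had 581 and 537 CPM in Aire-/- and 528 and 594 CPM in Aire+/+ libraries, with a log2 fold change of -0.01 (SE 0.18). Ifnar2, the chain that binds ligand most tightly and carries JAK1, had 52.1 and 85.8 CPM in Aire-/- and 71.9 and 41.9 CPM in Aire+/+ libraries (log2 fold change 0.27, SE 0.35). The values of both genes overlapped between genotypes. For Ifnar1 all 4 libraries lay within 528 to 594 CPM, while for Ifnar2 the 2 libraries of a genotype differed by 1.65 times in Aire-/- and 1.72 times in Aire+/+. The length-scaled ratio of Ifnar1 to Ifnar2 ran from 4.87 to 11.0 over the libraries, with the genotypes overlapping, and that of Ifngr1 to Ifnar1 was 4.45 and 7.16 in Aire-/- against 2.64 and 3.49 in Aire+/+ libraries.

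**Figure D1:**
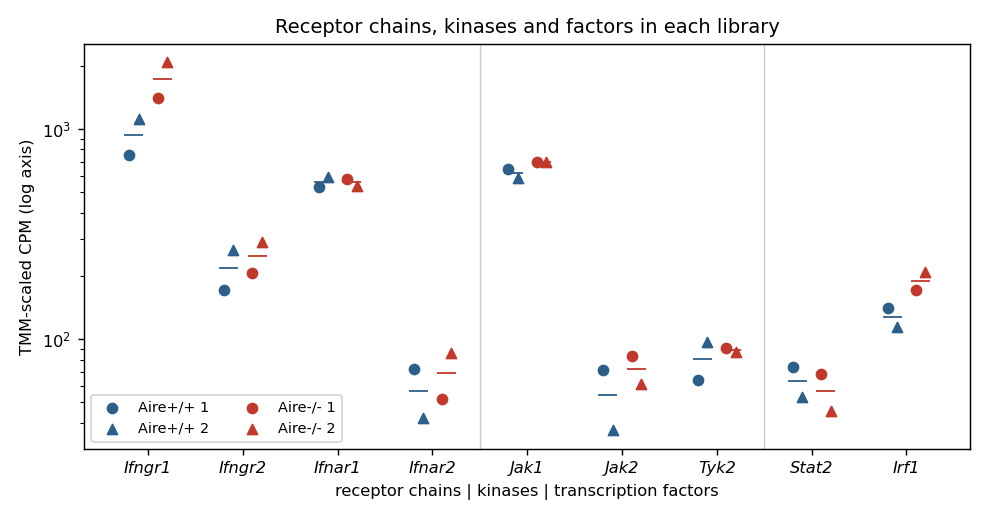
TMM-scaled CPM (log axis) of the 9 genes in each library, with circles and triangles for replicates 1 and 2, blue for Aire+/+, red for Aire-/-, and short lines at the genotype means. Ifngr1 lies at 1397 and 2075 CPM in Aire-/- and at 753 and 1120.0 CPM in Aire+/+, whereas the 4 points of Ifnar1 lie within 528 to 594 CPM.

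Of the kinases, Jak1, which serves both receptors, was the most abundant. It had 696 and 697 CPM in Aire-/- and 645 and 587 CPM in Aire+/+ libraries, so the genotypes did not overlap, at a log2 fold change of 0.18 (SE 0.17). Jak2, the partner of IFNGR2 and of several interleukin receptors, had 83.1 and 61.3 CPM in Aire-/- and 71.1 and 36.8 CPM in Aire+/+ libraries, which overlap (0.42, SE 0.34). Its lowest value came from Aire+/+ replicate 2, at 43 counts (31.1 to 57.9 as the 95% exact Poisson interval, for counting error only). Without that library the log2 fold change of Jak2 was 0.02, and without Aire+/+ replicate 1 it was 0.96. Tyk2, the kinase of IFNAR1 and of the receptors for interleukin-12 and interleukin-23, had 90.4 and 86.8 CPM in Aire-/- and 63.8 and 96.7 CPM in Aire+/+ libraries (0.14, SE 0.27). The Aire-/- values of Tyk2 lay between the Aire+/+ values.

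The transcription factors lay on opposite sides of 0. Stat2, which joins the type I response complex, had 68.5 and 45.3 CPM in Aire-/- and 73.5 and 53.0 CPM in Aire+/+ libraries, which overlap (-0.15, SE 0.32). Irf1 had 172 and 208 CPM in Aire-/- and 141 and 115 CPM in Aire+/+ libraries, from 188, 221, 175 and 134 counts. Both Aire-/- libraries stood above both Aire+/+ libraries for Irf1. Its means were 190.1 ± 25.9 and 128 ± 18.9 CPM (SD, n = 2 each), at a log2 fold change of 0.57 (SE 0.23). Irf1 had the second largest difference of the 9, after Ifngr1.

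Over the 9 genes, 7 lay above 0 and 2 below, with a median log2 fold change of 0.18, where 50.9% of the 9783 tested genes lay above 0 and their median was 0.01. Ifngr1, Jak1 and Irf1 were the 3 whose Aire-/- libraries both stood above the Aire+/+ pair, where 17.1% of all tested genes did so, and 0 stood wholly below, where 17.3% did. By edgeR's quasi-likelihood test 0 of the 9 were called at an adjusted p under 0.05, beside 0.0204% of all tested genes. DESeq2 and limma-voom also called 0 of the 9, beside 0.0307% and 0.0102% of all tested genes. The size of the Ifngr1 difference moved with single libraries. It was 1.15 on the log2 scale without Aire-/- replicate 1, and 1.20 once Aire+/+ replicate 2 was left out instead. Leaving out Aire-/- replicate 2 gave 0.58, and leaving out Aire+/+ replicate 1 gave 0.63. In the first pair of these fits the number of the 9 genes called rose from 0 to 1, from which nothing is read, since the genes were chosen with this difference known. With Rn45s left out, Ifngr1 stood at 0.88 and Irf1 at 0.56 on the log2 scale.

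Scaled to the CD3 chains of the same library, a setting chosen after the data were seen, Ifngr1 kept its separation. It stood at 101% and 138% of the summed CD3 level in Aire-/- and at 75.0% and 73.1% in Aire+/+ libraries, a log2 ratio of means of 0.69. Irf1 stood at 12.4% and 13.9% against 14.1% and 7.48%, so its genotypes overlapped on this scale (0.28). Jak1 stood at 50.1% and 46.3% against 64.3% and 38.3%, also overlapping, and its direction turned, to -0.089. Ifngr2, Ifnar2 and Tyk2 turned as well, to -0.015, -0.067 and -0.046, while Jak2 stayed above 0 (0.084) and Ifnar1 (-0.24) and Stat2 (-0.44) below it. In both genotypes Jak2 and Stat2 were higher in the library with the higher B cell marker sum, and Ifngr1 and Ifngr2 were lower in it. That library was replicate 1 in each genotype. The share of all tested genes with a common order of this kind was not counted, so no link to B cell content is read from it. The summed markers of interleukin-17 producing γδ T cells, given above, stood in the same order of the 4 libraries as Ifngr1 and did not overlap between genotypes. The other 5 genes had no such common order with the B cell sum, and the part of the mixture in these differences was not tested.

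**Figure D2:**
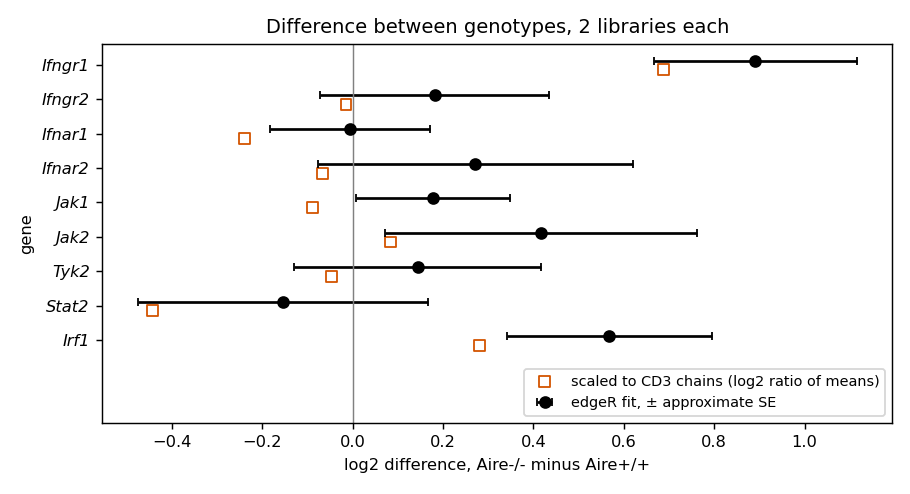
Log2 difference between Aire-/- and Aire+/+ (2 libraries each) for the 9 genes, as filled points with the approximate SE from the edgeR fit and as open squares after scaling to the CD3 chains. Ifngr1 lies at 0.89 and 0.69, and Jak1 lies at 0.18 and, on the CD3 scale, at -0.089.

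**Figure D3:**
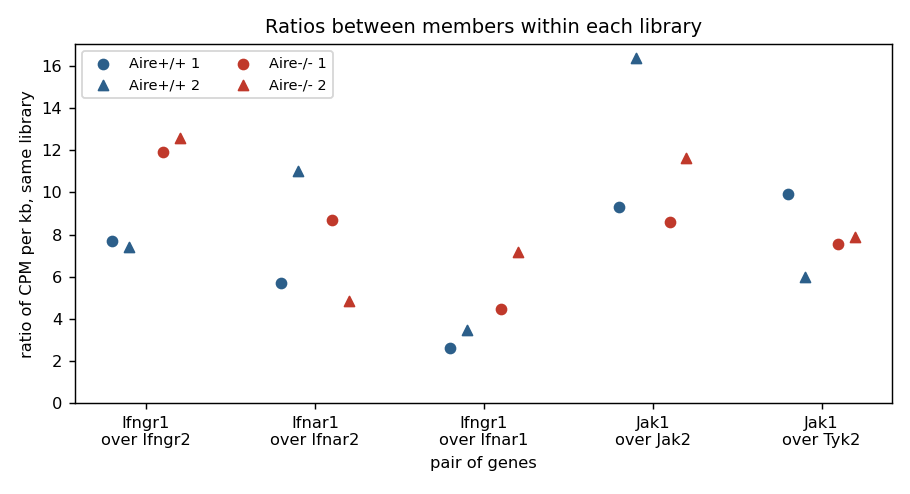
Ratio of length-scaled levels of 2 genes within the same library (axis from 0), for 5 pairs of genes, with colours for genotype and shapes for replicate. The Ifngr1 to Ifngr2 ratio is 11.9 and 12.6 in Aire-/- and 7.72 and 7.41 in Aire+/+ libraries, while the Jak1 to Jak2 ratio runs from 8.59 to 16.4 with the genotypes overlapping.

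Divided by the length of each gene's longest GENCODE transcript, the levels fell into 4 groups. Ifngr1 stood alone at a mean of 633 CPM per kb over the 4 libraries (range 357 to 983). Ifnar1 (mean 143) and Jak1 (mean 134) followed, with overlapping ranges, and then Irf1 (74.4) and Ifngr2 (62.8), which overlapped each other but not Jak1. Ifnar2 (20.7), Tyk2 (17.5), Stat2 (13.7) and Jak2 (12.5 CPM per kb) came last, apart from Ifngr2, and each of these overlapped the next in order. Jak1 was thus 8.59 to 16.4 times as abundant as Jak2 per kb, and 5.97 to 9.94 times as abundant as Tyk2, in the same library. Irf1 and Ifngr2 separated in the Aire-/- libraries alone (80.4 and 97.5 against 55.4 and 78.1 CPM per kb) and overlapped in the Aire+/+ libraries (53.6 and 66.2 against 46.2 and 71.5). With the union of all annotated exons as the length, Irf1 moved to 40.0 CPM per kb and below Ifngr2 (61.8), and Ifnar1 to 94.3. Jak1 moved to 90.8 while Jak2 stayed at 12.5 CPM per kb, so the ratio of Jak1 to Jak2 depends on the length used. The lowest 3 changed order among themselves.

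**Figure D4:**
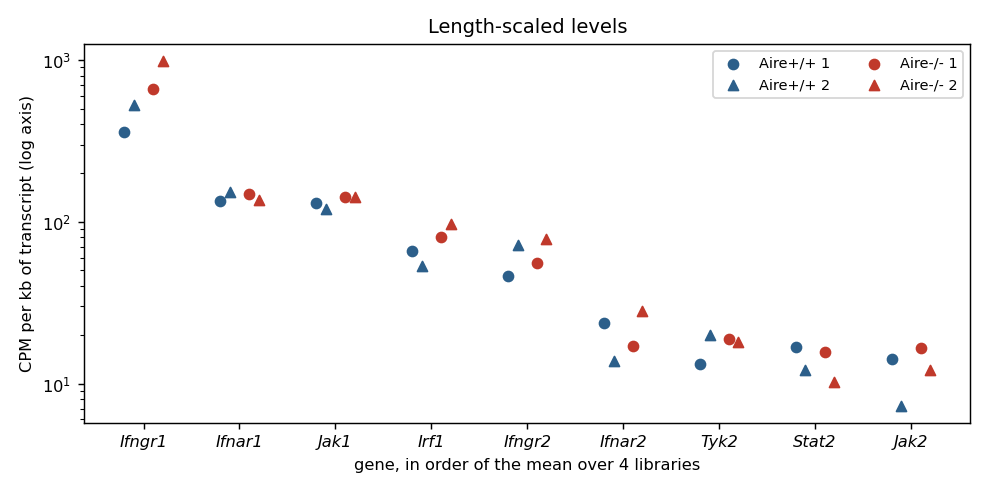
CPM per kb of the longest annotated transcript (log axis) for the 9 genes in each library, ordered by the mean over 4 libraries, with colours for genotype and shapes for replicate. Ifngr1 spans 357 to 983 CPM per kb and stands apart from Ifnar1 and Jak1, while the last 4 genes have overlapping ranges.

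The ligands of these receptors were almost absent from the libraries. Of 21 interferon genes in the table, 12 had no count in any library, and 0 had enough counts to be tested. Ifng, which encodes interferon-γ, had 2 and 1 counts in Aire-/- against 2 and 3 in Aire+/+ libraries, and the highest count of any ligand in any library was 4. Where nothing was counted, up to 3 counts remain possible, or 2.42 to 2.83 CPM here. Of 7 related receptor chains 3 were tested and 0 passed by edgeR, DESeq2 or limma-voom. By edgeR 0 were higher and 1 lower at an unadjusted p under 0.05, beside 5.57% of all tested genes in either direction. Il10ra, the ligand-binding chain for interleukin-10, was that 1, at 97.6 ± 24.7 against 157 ± 70.0 CPM (log2 fold change -0.69, SE 0.31), although its genotypes overlapped. Without Aire+/+ replicate 1 the difference of Il10ra was -0.15, and over all leave-outs it ran from -1.09 to -0.15. The others were Il10rb (0.08, SE 0.46) and Il22ra1, a chain of the interleukin-22 receptor (0.36, SE 0.49). Ifnlr1, the specific chain of the type III interferon receptor, had 1 to 4 counts per library and was not tested.

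Among the other JAK and STAT genes, 6 of 7 lay above 0, the median was 0.18 on the log2 scale, and 4 had both Aire-/- libraries above the Aire+/+ pair, as did 17.1% of all tested genes. None passed by edgeR, DESeq2 or limma-voom, and edgeR counted 1 higher and 0 lower at an unadjusted p under 0.05, beside 5.57% of all tested genes in either direction. Stat3, a mediator of interleukin-6 and interleukin-23 signals, had 174 and 301 CPM in Aire-/- and 200.4 and 217 CPM in Aire+/+ libraries (0.18, SE 0.25). Stat6, the factor of interleukin-4 and interleukin-13, had a log2 fold change of -0.02 (SE 0.21). Jak3, the kinase of the common γ chain, which was named after its values were seen, had one of 0.19 (SE 0.26).

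Of the 8 other interferon regulatory factors 4 lay above 0 and 4 below, at a median of 0.03. None passed by edgeR, DESeq2 or limma-voom. At an unadjusted p under 0.05 by edgeR 1 was higher and 0 lower, beside 5.57% of all tested genes in either direction. Irf9, the DNA-binding partner of STAT2, had 92.3 and 141 CPM in Aire-/- and 107 and 133 CPM in Aire+/+ libraries (-0.03, SE 0.26). Irf4, a factor of activated lymphocytes and plasma cells, averaged 133 ± 31.2 against 186 ± 9.27 CPM (SD, n = 2 each), lower in Aire-/-. Its log2 fold change was -0.49 (SE 0.23, adjusted p = 0.91 by edgeR), with both Aire-/- libraries below both Aire+/+ libraries. Irf5 had a log2 fold change of 0.25 (SE 0.25).

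Brakes of the relay, which are SOCS and PIAS proteins, phosphatases and related inhibitors, lay above 0 for 15 of 18 tested genes, with a median of 0.14. None passed by edgeR, DESeq2 or limma-voom, and 0 did at an unadjusted p under 0.05 by edgeR, beside 5.57% of all tested genes. The most abundant by CPM were Ptprc, the phosphatase CD45 on which the cells were sorted (0.13, SE 0.16), Ptpn6, the phosphatase SHP-1 (0.31, SE 0.20), and Cish, a SOCS family gene induced by STAT5 (0.42, SE 0.21). Socs1, the main inhibitor of JAK1 and JAK2 after interferon-γ, was picked with its values known and had 10 and 14 counts in Aire-/- against 20 and 25 in Aire+/+ libraries (-0.74, SE 0.52).

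Of 53 interferon-induced genes 43 were tested, 36 lay above 0, and their median was 0.43 on the log2 scale. In 24 both Aire-/- libraries stood above both Aire+/+ libraries and in 4 below, where 17.1% and 17.3% of all tested genes did so. None passed by edgeR, DESeq2 or limma-voom. At an unadjusted p under 0.05 edgeR counted 8 higher and 1 lower, beside 5.57% of all tested genes in either direction. The list was made with earlier results on interferon genes known, and its direction is no independent evidence. B2m, the light chain of class I molecules, had a log2 fold change of 0.07 (SE 0.15), and the class I heavy chains H2-K1 and H2-D1 had 0.45 (SE 0.17) and 0.23 (SE 0.18). Cxcl10, a chemokine induced by interferon-γ, picked with its values known, had 12 and 93 counts in Aire-/- against 12 and 10 in Aire+/+ libraries. Its fold change of 2.41 on the log2 scale thus came with 1 high library, Aire-/- replicate 2. Cxcl10 was called higher when Aire-/- replicate 1 (3.25), Aire+/+ replicate 1 (2.50) or Aire+/+ replicate 2 (2.33) was left out. Without Aire+/+ replicate 2 Gbp8 and Ifi47, which are interferon-induced GTPases, were also called higher (2.22 and 1.51) and Trim25, a ubiquitin ligase, lower (-1.19).

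**Figure D5:**
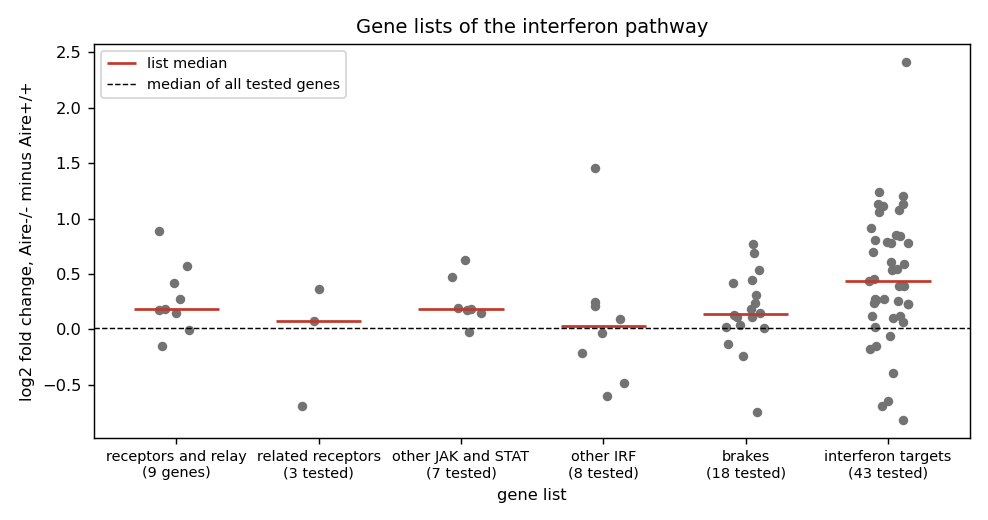
Fitted log2 fold changes between Aire-/- and Aire+/+ for the 9 genes and for 5 other gene lists of the pathway, 1 grey point per tested gene (horizontal spread is arbitrary), with the list median in red and the median of all tested genes dashed. List medians run from 0.03 for other interferon regulatory factors to 0.43 for interferon-induced genes, against 0.01 for all tested genes.

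The genes with the pattern most like that of Ifngr1 were found by the root mean square distance in log2 CPM, centred on each gene's mean over the 4 libraries. They were Ube2q2, a ubiquitin-conjugating enzyme (distance 0.04), Kif1c, a kinesin (0.06), and Bhlhe40, a transcription factor of activated T cells (0.06), against a median distance of 0.59 over all tested genes. Bhlhe40 had 309 and 472 CPM in Aire-/- and 187 and 258 CPM in Aire+/+ libraries, the same order of libraries as Ifngr1. Ube2q2 had 16 to 41 counts per library and Kif1c 5 to 17. With only 4 libraries many genes share such an order, and nothing about shared function follows from it. Of the other 8 genes described here Ifngr2 lay nearest to Ifngr1, at a distance of 0.35 and place 763 of the tested genes.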

How the data were processed

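Counts per gene symbol were deposited by the authors as 1 table with 1 column per library, whole numbers with no normalization, per the file headers. TopHat2 2.0.10, Cufflinks 2.2.1 and the build mm10 are named without role, per the submitters' processing notes. Counting tool, annotation, strand and duplicate handling were not given in the sources. The Smart-Seq2 reads carry no molecular identifiers, so intervals cover counting error only.

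Groups came from the sample titles. The main test was edgeR 4.0.16 (R 4.3.3) with TMM factors, filterByExpr (minimum count 10, minimum total 15, 9783 genes kept), the quasi-likelihood test on genotype over all 4 libraries and Benjamini-Hochberg adjustment over all tested genes. Calls were made at an adjusted p under 0.05. Log2 fold changes are Aire-/- minus Aire+/+, with an approximate SE (the fold change over the square root of F). Levels are TMM-scaled CPM, per kb with GENCODE M21 lengths. The distance in patterns used a pseudocount of 2 CPM. Promoters came from RefSeq (GRCm38.p6), which matched all 9 genes by symbol. Bases soon after the RefSeq start were found in a GENCODE transcript of the gene for Ifngr1, Ifngr2, Ifnar2, Jak1 and Irf1. They were not found for Ifnar1, Jak2, Tyk2 and Stat2, so those starts were not checked in this way. Alternatives used DESeq2 1.42.0, limma 3.58.1 (voom) and other filters, factors and libraries. Tables and plots used Python 3.11.15.

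The 9 genes and all lists were chosen with earlier results of these data known. Beyond the 9, the 3 most abundant tested genes of each list are named, and any past the threshold. The 3 genes nearest to Ifngr1 are named too. Of further genes, Jak3, Socs1 and Cxcl10 were named after their values were seen. Gbp8, Ifi47 and Trim25 were named because settings other than the main one called them. Single cell type markers that went different ways were also picked with their values known. Some genes of the lists, 1 of them picked by this rule, are not reported here, although they are counted. The libraries were not copies of each other, since chi-square over degrees of freedom between libraries of the same genotype was 4.1 and 4.0. The labels give no batch.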

Additional observations from a re-analysis of the deposited data

How the results depend on the processing

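Of all tested genes edgeR called 0 higher and 2 lower in Aire-/- libraries. The numbers were 21 and 26 without a filter beyond a total above 0, 2 and 4 with the replicate block, and limma-voom called 1 lower. Leaving out 1 library, where the lone library is taken to vary as the other genotype does, gave 5 to 21 higher and 6 to 42 lower genes. Of the 9 genes, 1, Ifngr1, was called higher without the filter and with the replicate block, and 0 to 1 higher and 0 lower when 1 library was left out. Of the pathway lists, 2 were called higher without the filter (Cxcl10 and Ifi47), and 0 to 3 higher and 0 to 1 lower when 1 library was left out. The cause was not tested. Replicate numbers were shared by the labels only: the difference between replicates 1 and 2 correlated between genotypes at r = -0.08 across genes, so the block rests on a number and not on a known pairing.

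The direction of Ifngr1, Jak1, Jak2 and Irf1 stayed above 0 under all 13 settings tried on the fit, although Jak1 turned on the CD3 scale. Leaving out 1 library turned the log2 fold change of 5 of the 9 genes, with ranges of -0.11 to 0.53 for Ifngr2, -0.096 to 0.077 for Ifnar1, -0.13 to 0.71 for Ifnar2, -0.13 to 0.47 for Tyk2 and -0.48 to 0.11 for Stat2. Among named pathway genes it ran from -0.54 to 0.86 for Il10rb, -0.015 to 0.84 for Il22ra1, -0.27 to 0.53 for Stat3, -0.21 to 0.14 for Stat6, -0.38 to 0.25 for Irf9 and -0.078 to 0.21 for B2m. Scaled to the CD3 chains, which was added after seeing the data, Ifngr2 (-0.015), Ifnar2 (-0.067), Jak1 (-0.089) and Tyk2 (-0.046) turned. Depth limits the genes of few counts. Jak2 had the widest spread between libraries of a genotype among the 9 genes, at 1.93 times in Aire+/+. Its 88 and 43 counts there had 95% exact Poisson intervals of 70.6 to 108 and 31.1 to 57.9, which do not overlap. Those intervals cover counting error only, and the reason for the spread was not tested.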
